A study of Mus musculus with 2 samples.

Results

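The genes described here are 8 members of the transforming growth factor beta (TGF-beta) pathway in mouse bone marrow cells: the ligand Tgfb1, the receptors Tgfbr1, Tgfbr2 and Tgfbr3, and the intracellular SMAD genes Smad2, Smad3, Smad4 and Smad7. They were taken by symbol from the 31053 genes of the deposited count tables, where each symbol has 1 row. The study sorted bone marrow cells that carry E-cadherin on their surface into cKIT+ and cKIT- fractions and sequenced 1 single-cell library from each. The question behind the sort was how the cKIT+ fraction relates to the cKIT- fraction, known for its basophil and mast cell precursors. The labels give the strain of both libraries as FVB, with no treatment, age or time. The text of the study calls the mice wild-type, whereas its legend names VaviCre;mTmG mice, in which a Cre recombinase driven in blood cells switches a fluorescent reporter, and the cells of several mice were pooled. With 1 library per sort there is no replicate, and no difference was tested. Values in brackets are 95% intervals for counting error only, exact Poisson for levels and exact binomial for ratios.

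TGF-beta is secreted in a latent form and acts, once released, through a pair of serine/threonine kinase receptors. The ligand binds the type II receptor TGFBR2, which recruits and phosphorylates the type I receptor TGFBR1. The co-receptor TGFBR3, also called betaglycan, has no kinase activity and presents ligand to TGFBR2, and its shed ectodomain can hold ligand away from cells. Activated TGFBR1 phosphorylates SMAD2 and SMAD3, which enter the nucleus with the common partner SMAD4. SMAD7 is induced by the pathway and inhibits its receptors. In bone marrow, TGF-beta is known for restraining the division of stem and progenitor cells, and in culture it promotes the maturation of mucosal-type mast cells.

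Promoters are shown for both signalling receptors, Tgfbr1 and Tgfbr2, and no regulation shared by them was tested. The letters are the 250 bases before the RefSeq transcription start (GRCm38.p6), written 5′ to 3′ on the strand of the gene. Capitals mark the core SMAD-binding letters CAGAC on either strand, and the GATA-type letters AGATAA were searched on both strands as well.
Tgfbr1, chr4:47352972-47353221, + strand: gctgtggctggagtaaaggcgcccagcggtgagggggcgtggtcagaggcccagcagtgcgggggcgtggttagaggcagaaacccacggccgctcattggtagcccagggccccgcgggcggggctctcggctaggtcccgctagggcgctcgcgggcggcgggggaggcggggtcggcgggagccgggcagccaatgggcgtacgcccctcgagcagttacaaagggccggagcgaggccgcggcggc
Tgfbr2, chr9:116175364-116175613, - strand: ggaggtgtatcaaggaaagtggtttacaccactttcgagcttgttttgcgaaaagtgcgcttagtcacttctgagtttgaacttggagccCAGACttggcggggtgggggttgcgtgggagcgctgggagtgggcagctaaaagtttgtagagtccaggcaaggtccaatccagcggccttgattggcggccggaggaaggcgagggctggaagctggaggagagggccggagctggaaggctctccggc
The Tgfbr2 window held 1 CAGAC, which starts 160 bases before the transcription start, and the Tgfbr1 window held none. Neither held AGATAA. Over 32851 promoter windows of the same length, CAGAC was found in 42.2% and AGATAA in 9.99%. The GC content was 74.8% for Tgfbr1 and 58.4% for Tgfbr2. RefSeq windows were found for 4 of the 8 members. A further Tgfbr1 window, at a start within the gene, is not shown. It held 1 CAGAC, 203 bases before that start, and no AGATAA.

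The levels are UMIs, the unique molecular tags of captured RNA, summed over the cells of a group and scaled to the total UMIs of that group (counts per 1000000, CPM). They count 3′ ends, so levels of different genes are not compared. After the cell filter of the study, 6479 cKIT+ and 3662 cKIT- cells remained, with medians of 13039 and 4416.5 UMIs per cell. The libraries shared 10 cell barcodes. Basophils were taken as cells in which Mcpt8, a basophil protease, made up at least 0.2% of the UMIs with at least 3 UMIs, 3556 cKIT+ and 2659 cKIT- cells. Kit had 21.2 CPM in these cells of the cKIT+ library and 0.970 in those of the cKIT- library. Clusters with basophil markers held 87.5% of the cKIT+ and 98.9% of the cKIT- Mcpt8-positive cells. Mcpt8 is itself among these markers, so these shares are not an independent check. The Mcpt8 limits left out 15.4% of the 3674 cKIT+ and 19.2% of the 3254 cKIT- cells in these clusters. The Mcpt8-positive cells were split by the share of their UMIs taken by Prss34, another basophil protease, into cells under 0.5%, from 0.5 to 2%, from 2 to 5%, and 5% or more. These bins held 1025, 1069, 1230 and 232 cKIT+ cells and 627, 253, 735 and 1044 cKIT- cells. The lowest bin differed between the sorts. In the cKIT+ library its cells were 74.0% basophil-like, 9.07% eosinophil-like and 13.3% unnamed, with a median of 13629 UMIs and 34.6% mitotic cells. In the cKIT- library they were 99.5% basophil-like, with a median of 3237 UMIs and 0.957% mitotic cells. Mitotic cells are those past a limit on 10 mitotic genes, given below, and not cells in mitosis alone.

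As CPM, 6 members were higher in the cKIT- library and Tgfbr3 and Smad3 were higher in the cKIT+ library, both over all cells and over Mcpt8-positive cells. No member with at least 10 CPM differed by 2-fold over all cells, where 16.4% of the 8023 genes at that level did (7.3% higher in cKIT+ and 9.06% higher in cKIT- cells). Among Mcpt8-positive cells Tgfbr3 alone did, where 11.5% of 7771 genes did (5.25% higher in cKIT+ and 6.24% higher in cKIT- cells). The median log2 ratio of cKIT+ over cKIT- was -0.47 over the 7 members at 10 CPM and -0.03 over all genes at that level. Per cell in place of CPM, all 8 members had more UMIs in the cKIT+ library, which was sequenced to more UMIs per cell. The study also reports more reads per cell for the cKIT+ library. The parts of capture, sequencing depth and RNA per cell in this difference cannot be told apart here.

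**Figure D1:**
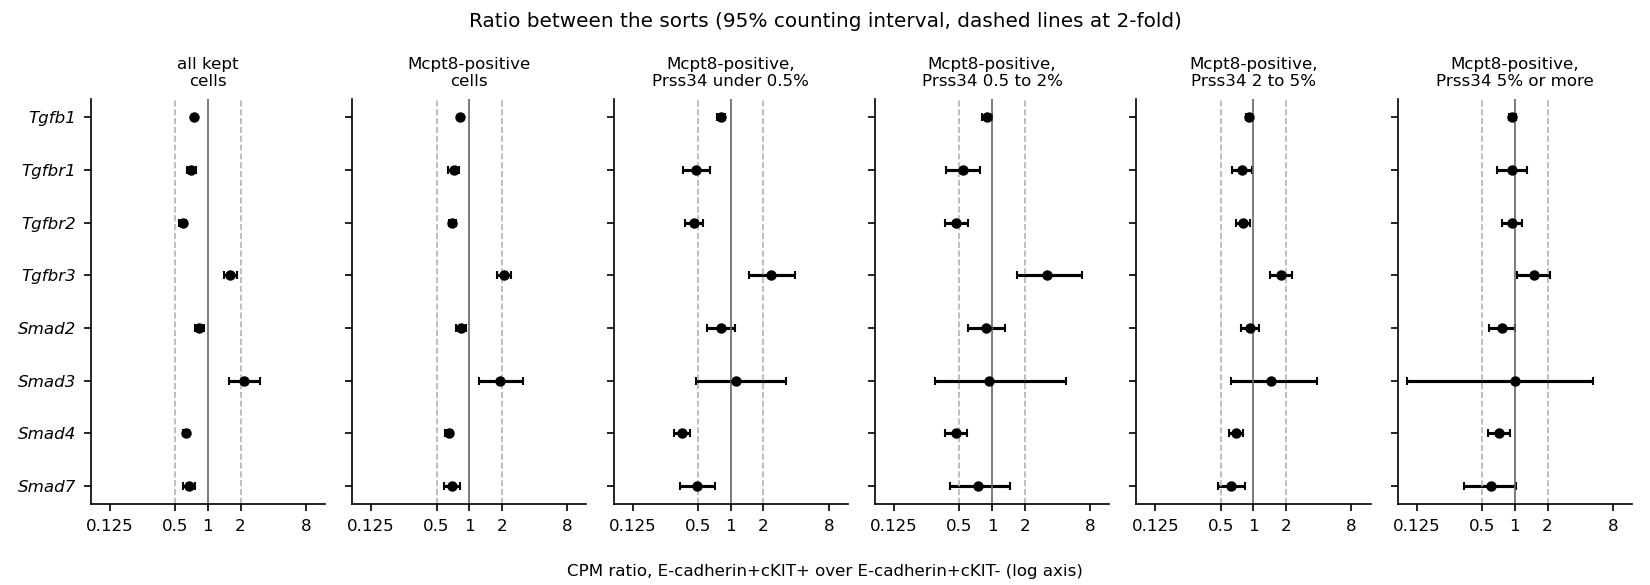
CPM ratio of E-cadherin+cKIT+ over E-cadherin+cKIT- for each member (log axis), in all kept cells, in Mcpt8-positive cells and in the 4 Prss34 bins. Points are ratios of summed UMIs, bars are 95% counting intervals and dashed lines mark 2-fold; Tgfbr1, Tgfbr2 and Smad4 lie left of 1 and near or past 2-fold at low Prss34 and come closer to 1 at 5% or more.

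Along Prss34 the libraries differed in which members moved. In cKIT+ cells no member with at least 10 CPM differed by 2-fold between the lowest and the highest bin, against 10.7% of 7757 genes (5.87% higher in the lowest and 4.87% in the highest bin). In cKIT- cells Smad4 did, 1 of 7 members at that level, against 25.3% of 7769 genes (11.3% higher in the lowest and 13.9% in the highest bin). The median log2 ratio of the lowest over the highest bin in cKIT- cells was 0.57 over the members and 0.10 over all genes. With the total scaled by TMM, which takes the bulk of genes as equal, all ratios in this comparison were multiplied by 0.918. Counted per cell, the cKIT- cells of the lowest bin held fewer UMIs of every member than those of the highest bin, except Smad3 with 6 and 7 UMIs. The median cell of those bins held 3237 and 9507 UMIs. The sorts differed most where Prss34 was low: 5 of 7 members at 10 CPM passed 2-fold under 0.5%, where 41.3% of 8159 genes did, 22.5% with the higher level in cKIT+ and 18.7% in cKIT- cells. Of these members Tgfbr3 was higher in cKIT+ and Tgfbr1, Tgfbr2, Smad4 and Smad7 in cKIT- cells. With any cell holding a Mcpt8 UMI taken as positive, Tgfbr1 and Tgfbr3 no longer passed in this bin, and without mitotic cells Smad7 did not. From 0.5 to 2%, Tgfbr3, Tgfbr2 and Smad4 passed, 3 of 6, where 29.1% of 7993 genes did (14.2% and 14.9%). From 2 to 5%, 0 of 7 passed, where 5.79% of 7705 genes did (1.74% and 4.05%), and at 5% or more 0 of 6, where 1.61% of 7458 genes did (0.711% and 0.898%). Without mitotic cells, Smad7 passed from 2 to 5%, with the higher level in cKIT- cells.

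**Figure D2:**
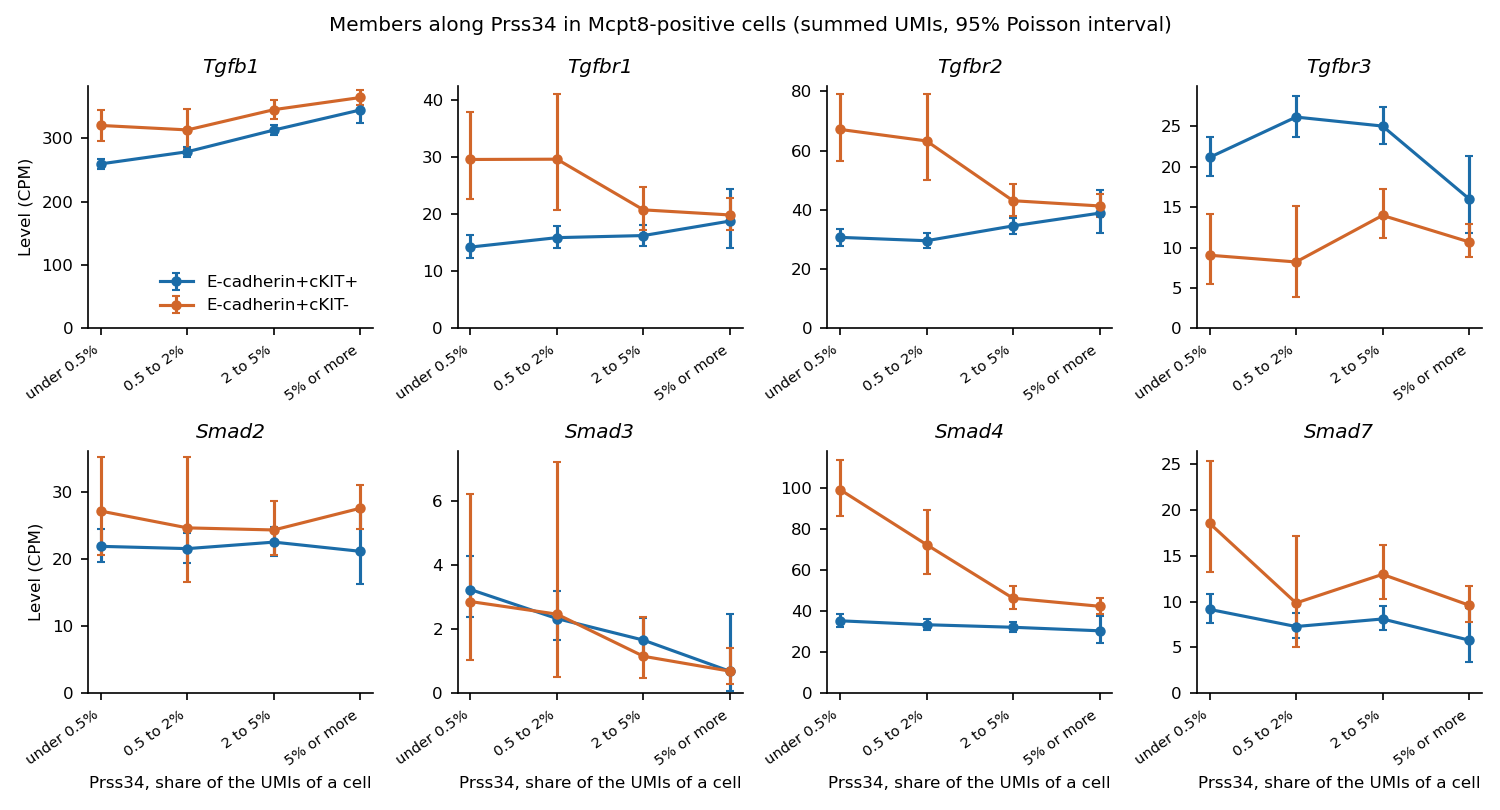
Level in CPM of each member (vertical axis, from 0) in Mcpt8-positive cells by the share of UMIs taken by Prss34 (horizontal axis), with the cKIT+ library in blue and the cKIT- library in orange. Points are summed UMIs and bars are 95% Poisson intervals; Smad4 was 99.05 CPM in the lowest and 42.3 in the highest cKIT- bin, against 35.2 and 30.4 in the cKIT+ bins.

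Tgfb1, which encodes the ligand TGF-beta 1 (ENSMUSG00000002603, chromosome 7 from 25687002 to 25705077 on the + strand, GRCm38), was counted 23226 times in cKIT+ and 7788 times in cKIT- cells. Its level over all cells was 255 CPM (252 to 258) in cKIT+ and 341 CPM (333 to 348) in cKIT- cells, 1.34 times higher in the cKIT- library (1.30 to 1.37). In Mcpt8-positive cells it was 289 CPM (284 to 294) and 350.2 CPM (342 to 359), a ratio of 1.21 (1.18 to 1.25). The sorts thus differed by less than 2-fold, with intervals that do not meet. From the lowest to the highest Prss34 bin, the cKIT+ level was 259, 279, 313 and 344 CPM, a ratio of lowest over highest of 0.753 (0.703 to 0.808). The cKIT- level was 320.0, 313, 345 and 364 CPM, with a ratio of 0.879 (0.808 to 0.954). The ligand was therefore higher at high Prss34 in both libraries, and the ratio between the sorts shrank from 1.23 (1.13 to 1.34) in the lowest bin to 1.06 (0.986 to 1.13) in the highest.

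Mitotic cells, those with at least 0.1% of their UMIs in 10 mitotic genes, were also more frequent at high Prss34, at 71.6% of the cKIT+ and 50.3% of the cKIT- cells of the highest bin. The name stands for this cut from a score, which does not tell cells in mitosis from other cycling cells. Tgfb1 was 1.13 times higher in mitotic than in other Mcpt8-positive cells of the cKIT+ library (1.09 to 1.16) and 1.17 times in the cKIT- library (1.12 to 1.23). Without mitotic cells the ratio of the lowest over the highest bin was 0.939 in cKIT+ and 0.961 in cKIT- cells, and the intervals of both bins overlapped in each library. In non-mitotic cKIT+ cells the level at 2 to 5% Prss34, 288 CPM (275 to 302), still lay above that under 0.5%, 256 CPM (245 to 268).

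Tgfbr1, the type I receptor kinase (ENSMUSG00000007613, chromosome 4 from 47353222 to 47414931 on the + strand), had 16.1 CPM (15.3 to 16.9) in all cKIT+ cells and 22.8 CPM (20.9 to 24.8) in all cKIT- cells. In Mcpt8-positive cells it had 829 UMIs or 15.7 CPM (14.6 to 16.8) in the cKIT+ and 426 UMIs or 21.7 CPM (19.7 to 23.9) in the cKIT- library, 1.39 times higher in the latter (1.23 to 1.56). Along Prss34 it was 14.2, 15.9, 16.2 and 18.8 CPM in cKIT+ cells and 29.5, 29.6, 20.7 and 19.8 CPM in cKIT- cells. Its direction along Prss34 thus went opposite ways by point value, but the cKIT+ ratio of lowest over highest, 0.758 (0.561 to 1.04), had an interval that includes 1, and the cKIT- ratio was 1.49 (1.10 to 1.99). The cKIT+ ratio was 1.06 without mitotic cells, from 8 UMIs in the 66 cells of the highest bin. It was 1.31 with each cell thinned to 2000 UMIs, which gave 2.66 in cKIT- cells. Between the sorts it was 2.08 times higher in cKIT- cells under 0.5% Prss34 (1.54 to 2.77) and 1.06 times at 5% or more (0.781 to 1.45).

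Tgfbr2, the type II receptor that binds the ligand (ENSMUSG00000032440, chromosome 9 from 116084293 to 116175360 on the - strand), was among the members with the larger ratios toward the cKIT- library over all cells. It had 28.5 CPM (27.4 to 29.6) in cKIT+ and 48.6 CPM (45.8 to 51.6) in cKIT- cells, a ratio of 1.71 (1.59 to 1.83). In Mcpt8-positive cells it had 32.2 CPM (30.7 to 33.8) and 46.0 CPM (43.0 to 49.1), a ratio of 1.43 (1.32 to 1.55). In cKIT- cells it was 67.1 CPM (56.5 to 79.2) and 63.3 CPM (49.9 to 79.1) in the bins under 0.5% and from 0.5 to 2%, and 43.1 CPM (38.0 to 48.6) and 41.3 CPM (37.5 to 45.5) in the bins from 2 to 5% and at 5% or more. The lower pair of bins thus lay above the upper pair, with a ratio of lowest over highest of 1.63 (1.33 to 1.97). In cKIT+ cells it was 30.7, 29.6, 34.6 and 38.9 CPM, with a ratio of 0.790 (0.642 to 0.979), and without mitotic cells that ratio was 0.978. In the cKIT- library the ratio without mitotic cells was 1.88. At 5% or more Prss34 the sorts had near equal levels, with a ratio of cKIT- over cKIT+ of 1.06 (0.862 to 1.32), against 2.19 (1.80 to 2.65) under 0.5%.

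Tgfbr3, the co-receptor betaglycan (ENSMUSG00000029287, chromosome 5 from 107106570 to 107289629 on the - strand), was the only one of the 3 receptor members with a higher level in cKIT+ cells. In Mcpt8-positive cells it had 1257 UMIs or 23.8 CPM (22.5 to 25.1) in the cKIT+ library and 223 UMIs or 11.4 CPM (9.94 to 12.98) in the cKIT- library. The cKIT+ level was the higher by a factor of 2.09 (1.81 to 2.42), higher than for 95.4% of the genes compared, and 2.17 within basophil-like clusters. It was under 2-fold without mitotic cells (1.81), without the 10 most abundant genes in the total (1.96), and with any cell holding a Mcpt8 UMI taken as positive (1.62). The cKIT+ level was 21.1, 26.1, 25.03 and 16.0 CPM along Prss34, with the higher point values in the middle bins. Its ratio of lowest over highest, 1.32 (0.969 to 1.83), was 0.847 without mitotic cells. That value rests on 15 UMIs in the highest bin, and the intervals of both bins overlap. The cKIT- ratio went from 0.846 to 0.557. The cKIT- level was 9.05, 8.21, 14.0 and 10.7 CPM, from 19, 10, 85 and 109 UMIs, and 1 cell held 40% of the 10 UMIs in the second bin. The intervals of neighbouring cKIT- bins overlap, so no order is read from them. Unlike both signalling receptors, Tgfbr3 differed between the sorts in every bin, with ratios of cKIT+ over cKIT- of 2.34 (1.47 to 3.93), 3.18 (1.71 to 6.68), 1.79 (1.42 to 2.28) and 1.499 (1.04 to 2.13).

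Smad2, a receptor-activated SMAD (ENSMUSG00000024563, chromosome 18 from 76241580 to 76310963 on the + strand), varied least. In Mcpt8-positive cells it had 22.0 CPM (20.7 to 23.3) in the cKIT+ and 26.3 CPM (24.1 to 28.7) in the cKIT- library, the latter 1.20 times higher (1.08 to 1.33). Along Prss34 it lay between 21.1 and 22.5 CPM in the cKIT+ bins and between 24.3 and 27.6 CPM in the cKIT- bins. The ratios of lowest over highest bin were 1.04 (0.787 to 1.38) and 0.984 (0.727 to 1.31), so a difference within these bounds could not be seen at this depth.

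Smad3, the other receptor-activated SMAD (ENSMUSG00000032402, chromosome 9 from 63646767 to 63757994 on the - strand), had few UMIs in basophils. It had 372 UMIs or 4.08 CPM (3.68 to 4.52) in all cKIT+ cells and 43 UMIs or 1.88 CPM (1.36 to 2.53) in all cKIT- cells. Only 119 and 23 of these UMIs came from Mcpt8-positive cells, at 2.25 CPM (1.87 to 2.69) and 1.17 CPM (0.744 to 1.76). The share of Smad3 UMIs from Mcpt8-positive cells was thus below the share of these cells among all cells in both libraries. Along Prss34 the cKIT+ level was 3.23, 2.33, 1.65 and 0.682 CPM, from 48, 38, 31 and 2 UMIs. The cKIT- level was 2.86, 2.46, 1.15 and 0.687 CPM, from 6, 3, 7 and 7 UMIs. The lowest bin was above the highest in both libraries, with ratios of 4.74 (1.24 to 40.3) and 4.16 (1.15 to 14.5). These ratios rest on 2 and 7 UMIs in the highest bins. Without mitotic cells they were 1.31 in cKIT+ and 2.39 in cKIT- cells, from 2 and 5 UMIs in those bins. With each library split into 4 equal groups by Prss34 share, the cKIT+ ratio was 1.98. Within the bins the ratio of cKIT+ over cKIT- was 1.13, 0.944, 1.44 and 0.993, each with an interval that includes 1.

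Smad4, the partner shared by all receptor-activated SMADs (ENSMUSG00000024515, chromosome 18 from 73639009 to 73703780 on the - strand), had the steepest course among the members at 10 CPM. Over all cells it had 34.7 CPM (33.5 to 35.9) in cKIT+ and 55.1 CPM (52.1 to 58.3) in cKIT- cells, 1.59 times higher in the latter (1.49 to 1.70). In Mcpt8-positive cells it had 33.2 CPM (31.7 to 34.8) and 51.5 CPM (48.3 to 54.7), a ratio of 1.55 (1.43 to 1.67). In cKIT- cells it was 99.05 CPM (86.0 to 113), 72.3 CPM (58.0 to 89.1), 46.2 CPM (41.0 to 51.9) and 42.3 CPM (38.4 to 46.5) along Prss34. The cKIT- ratio of lowest over highest was 2.34 (1.97 to 2.77), higher than for 92.9% of genes, and it lay between 2.11 and 2.41 over the other CPM scalings, the thinned cells, the cells without mitotic cells and the basophil-like clusters. Per cell, however, those bins held 0.332 and 0.413 Smad4 UMIs, a ratio of 0.804. In cKIT+ cells it was 35.2, 33.3, 32.1 and 30.4 CPM, with a ratio of 1.16 (0.925 to 1.47). The sorts differed 2.81 times under 0.5% (2.38 to 3.31), and 1.39 times still at 5% or more (1.11 to 1.77), with the higher CPM in cKIT- cells. Per cell, the ratio of cKIT+ over cKIT- was 1.54 under 0.5% and 0.929 at 5% or more.

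Smad7, the inhibitory SMAD (ENSMUSG00000025880, chromosome 18 from 75367529 to 75395935 on the + strand), had 8.02 CPM (7.28 to 8.82) in Mcpt8-positive cKIT+ cells and 11.6 CPM (10.2 to 13.3) in Mcpt8-positive cKIT- cells. The ratio was 1.45 (1.23 to 1.71) in favour of the cKIT- library. In cKIT- cells it was 18.6, 9.86, 12.99 and 9.62 CPM along Prss34, from 39, 12, 79 and 98 UMIs, with a ratio of lowest over highest of 1.93 (1.30 to 2.83). In cKIT+ cells it was 9.16, 7.29, 8.11 and 5.80 CPM, with a ratio of 1.58 (0.951 to 2.79). Both libraries thus had their highest value in the lowest bin with mitotic cells included, and there the cKIT- level was 2.03 times the cKIT+ level (1.38 to 2.91). Without mitotic cells this 2-fold difference was lost. The ratio of lowest over highest bin without mitotic cells was 1.38 in cKIT- cells. It was 0.895 in cKIT+ cells, with 11.5 CPM (9.27 to 14.1) in the lowest and 12.8 CPM (5.54 to 25.3) in the highest bin. That highest bin held 8 Smad7 UMIs in 66 cells and the intervals overlap, so no direction is read from this ratio.

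With all bins together, mitotic and other Mcpt8-positive cells differed by less than 2-fold in the members at 10 CPM. Within single bins, Tgfbr3 in cKIT- cells and Smad7 in both libraries did pass 2-fold, as given below. For Smad7 in cKIT+ cells this was at 5% or more Prss34, from 9 and 8 UMIs. The share of all genes that passed within a single bin was not counted, so these calls are not read as particular to these members. There were 1719 mitotic and 1837 other cells in the cKIT+ library and 860 and 1799 in the cKIT- library, and 732 and 288 cells lay within a factor of 2 of the limit. The median mitotic cell held 17878 UMIs in the cKIT+ and 10962 in the cKIT- library, against 11686 and 4462 for other cells. At 10 CPM, 3.67% of 7579 genes passed 2-fold in cKIT+ cells (3.19% higher and 0.475% lower in mitotic cells). In cKIT- cells 9.75% of 7628 genes did (6.37% and 3.38%). Tgfbr3 was lower in mitotic cells, at 22.2 against 25.9 CPM in cKIT+ cells, a ratio of 0.856 (0.765 to 0.957), and at 8.18 against 14.4 CPM in cKIT- cells, a ratio of 0.569 (0.426 to 0.756). Smad7 was lower as well, at 7.10 against 9.27 CPM in cKIT+ cells (0.766, 0.630 to 0.931) and 8.18 against 14.8 CPM in cKIT- cells (0.551, 0.413 to 0.729). Smad3, under 10 CPM, was lower too, with a ratio of 0.499 (0.338 to 0.729) from 48 and 71 UMIs in cKIT+ cells and of 0.381 (0.123 to 1.01) from 6 and 17 UMIs in cKIT- cells. Over all bins together these 3 members had the same direction in both libraries, but Tgfbr3 and Smad7 did not keep it in every cKIT+ bin. From the lowest to the highest cKIT+ bin, the Tgfbr3 ratio was 1.08, 0.772, 0.809 and 0.576, and the Smad7 ratio was 0.554, 0.908, 1.02 and 0.304. All these ratios are of CPM. Per cell over all bins, mitotic cells of both libraries held more Tgfbr3 and Smad7 UMIs than other cells, and fewer of Smad3. Mitotic and other cells had 675 and 582 Tgfbr3 UMIs in cKIT+ and 77 and 146 in cKIT- cells. For Smad7 these were 216 and 208, and 77 and 151. Smad4 was 0.768 times as high in mitotic cKIT- cells (0.676 to 0.872), but within the bins from 2 to 5% and at 5% or more the ratio was 1.13 (0.889 to 1.44) and 1.01 (0.830 to 1.23). In those cKIT- bins the Tgfbr3 ratio was 0.702 (0.442 to 1.10) and 0.401 (0.265 to 0.599), and the Smad7 ratio 0.492 (0.295 to 0.8003) and 0.588 (0.387 to 0.891). The lower Smad7 level of mitotic cKIT- cells was thus seen within both bins, and the lower Smad4 level was seen in neither. The lower bins held too few mitotic cKIT- cells, 6 and 31, for a value.

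**Figure D3:**
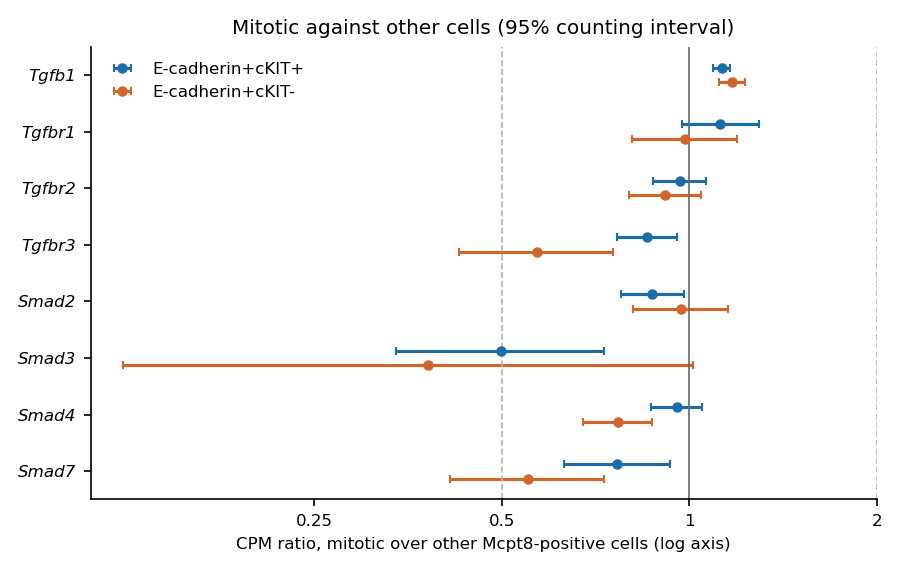
CPM ratio of mitotic over other Mcpt8-positive cells (log axis) for each member, with the cKIT+ library in blue and the cKIT- library in orange. Points are ratios of summed UMIs, bars are 95% counting intervals and dashed lines mark 2-fold; Tgfb1 lies to the right of 1 and Tgfbr3 and Smad7 to the left in both libraries.

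With the basophil-like cells included, the clusters gave 16 groups of at least 50 cells by class and sort. Macrophage-like cells, 110 in the cKIT+ library with a median of 4464.5 UMIs, had the highest level of the ligand and of both signalling receptors. Their Tgfb1 level was 444 CPM (390 to 504), Tgfbr1 113 CPM (86.3 to 145) and Tgfbr2 218 CPM (181 to 261), and in each case the interval did not meet that of the next group. The next groups were basophil-like cKIT- cells for Tgfb1, at 349.8 CPM (342 to 358), monocyte-like cKIT- cells for Tgfbr1, at 37.9 CPM (21.2 to 62.5), and B cell-like cKIT- cells for Tgfbr2, at 106 CPM (84.8 to 132). How many of all genes were highest in macrophage-like cells was not counted, so their lead is not read as particular to these members. The lowest Tgfb1 levels were in neutrophil-like cells, at 115 CPM (107 to 124) in the cKIT+ and 48.2 CPM (27.5 to 78.2) in the cKIT- library.

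Tgfbr2 was also high in an unnamed cKIT+ cluster of 439 cells led by Gzmb and Cma1, genes for granzyme B and a mast cell chymase, at 61.3 CPM (53.8 to 69.6). This cluster had 169 CPM of Kit and lay above basophil-like cKIT+ cells in 6 members, with intervals that do not meet for Tgfbr1, Tgfbr2, Smad2, Smad3, Smad4 and Smad7. Its Smad3 level was 11.8 CPM (8.61 to 15.7) against 2.55 CPM (2.14 to 3.0045) in basophil-like cKIT+ cells, its Smad4 level 64.7 CPM (56.9 to 73.1) against 33.8 CPM (32.3 to 35.4), and its Smad7 level 31.4 CPM (26.1 to 37.5) against 8.31 CPM (7.57 to 9.11). Tgfbr3 and Tgfb1 were lower in it, at 9.20 CPM (6.45 to 12.7) against 23.1 CPM (21.8 to 24.4), and 208 CPM (194 to 222) against 289.9 CPM (285 to 294). How many of all genes differed in this way between the Gzmb and Cma1 cluster and basophil-like cKIT+ cells was not counted. The 6 members are therefore not read as a trait of the pathway. Granulocyte/monocyte progenitor-like cells, 499 cKIT+ cells, had low levels of the receptors that bind TGF-beta, with 8.55 CPM of Tgfbr2 (7.02 to 10.3) and 1.40 CPM of Tgfbr3 (0.829 to 2.21). Erythroid-like cells had the lowest Smad4 level, 9.88 CPM (4.52 to 18.8) from 9 UMIs.

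Tgfbr3 was highest in cKIT+ basophil-like cells and in 400 eosinophil-like cells of low depth, at 33.2 CPM (22.4 to 47.4), whose intervals overlap. The median of that eosinophil-like cluster was 1785.5 UMIs and it carried 3802 CPM of Mcpt8, whereas the deeper eosinophil-like cells had 3.96 CPM of Tgfbr3 (2.38 to 6.18) and 1443 CPM of Mcpt8. Cdh1 was at 143 CPM in the low-depth cluster, against 90.7 in basophil-like cKIT+ and 10.8 in the deeper eosinophil-like cells. Of the marker genes used for naming, 7 of eosinophils and 5 of basophils were present in the low-depth cluster. The part that RNA from basophils has in its Tgfbr3 level was not tested. Dendritic cell-like cells had 0 Tgfbr3 UMIs, with a floor of 3 counts at 4.32 CPM and an upper limit of the Poisson interval at 5.31 CPM. Smad7 was highest in B cell-like cKIT- cells, 61.5 CPM (45.4 to 81.6), and dendritic cell-like cells, 56.2 CPM (39.95 to 76.8), which do not differ beyond their intervals. Smad3 had its lowest level among the 16 groups in cKIT- basophil-like cells, at 1.33 CPM (0.881 to 1.92), with an interval that overlaps that of erythroid-like cells. Mcpt8 itself had 268 to 5219 CPM in the groups not called basophil-like.

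**Figure D4:**
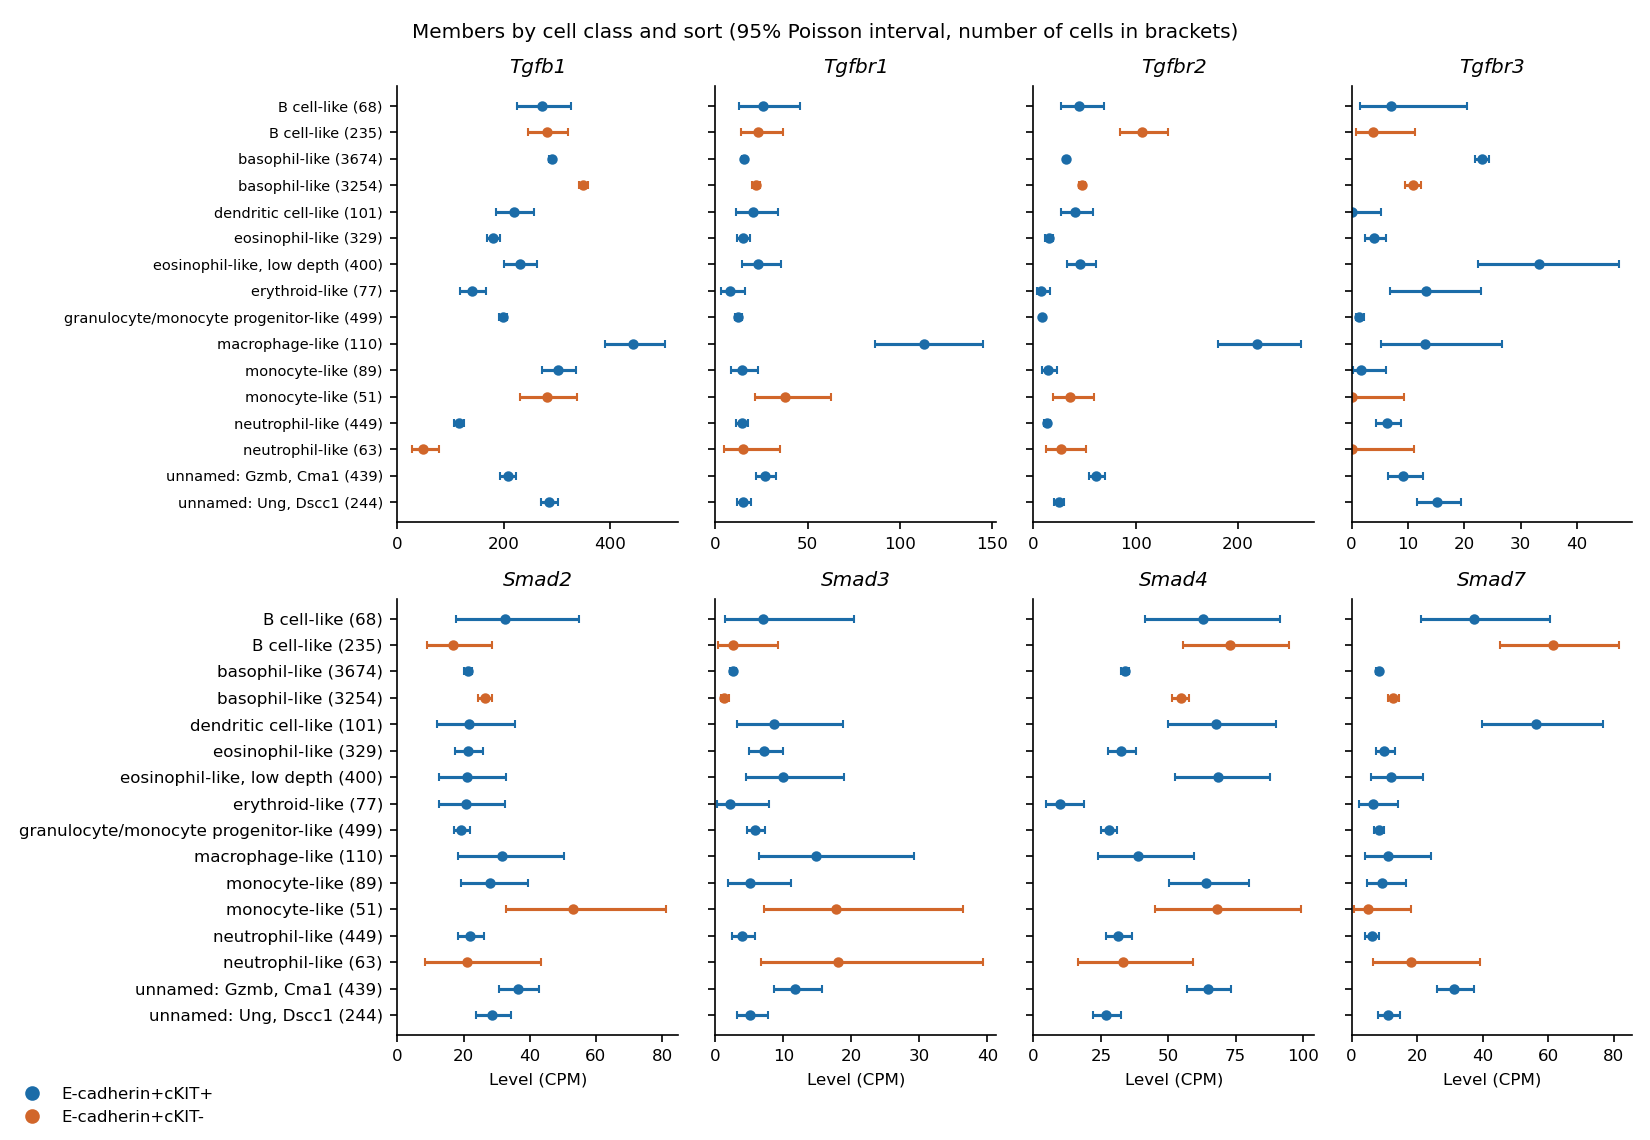
Level in CPM of each member (horizontal axes, from 0) by cell class (number of cells in brackets) with the cKIT+ library in blue, the cKIT- library in orange and 95% Poisson intervals. Macrophage-like cells stand to the right of all other groups for Tgfb1, Tgfbr1 and Tgfbr2, at 444, 113 and 218 CPM.

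Other genes of the pathway were followed as a list of 72 genes, all found in the files, of which 25 reached 10 CPM in Mcpt8-positive cells of either sort. None of the 9 other TGF-beta family ligands on the list did, so among these ligands Tgfb1 alone reached that level. Ligands not on the list were not examined. Endoglin (Eng), an accessory receptor, and Tgif1, a nuclear corepressor of SMADs, passed 2-fold toward the cKIT+ library. Eng had 14.985 CPM in cKIT+ and 4.49 CPM in cKIT- cells, a ratio of 3.34 (2.67 to 4.21), and Tgif1 19.3 and 9.55 CPM, a ratio of 2.02 (1.73 to 2.38). Id1 and Junb, both known to respond to TGF-beta family signals and to many others, were higher in cKIT- cells. Id1 had 110 CPM in cKIT+ and 234 CPM in cKIT- cells, a ratio of 2.12 (2.04 to 2.20), and Junb 65.1 and 197 CPM, a ratio of 3.03 (2.89 to 3.17). Per cell, Junb was still 1.5002 times higher in the cKIT- library, unlike all 8 members. The remaining 21 genes at that level did not pass 2-fold, against the 11.5% of all genes that did.

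Over all cells, 30 of the listed genes reached 10 CPM, with Eng higher in the cKIT+ library and Furin, Ski, Id1, Id3, Junb, Tgfbi and Cdh1 higher in the cKIT- library by 2-fold or more, against 16.4% of all genes. In the bin under 0.5% Prss34, 13 of 29 passed, against 41.3% of all genes. Eng, Tgif1, Wwp1, Fkbp1a and Cdkn1a were higher in cKIT+ cells there, and Furin, Ski, Skil, Smurf1, Id1, Id2, Junb and Cdh1 in cKIT- cells. From 0.5 to 2% 11 of 27 passed, against 29.1% of all genes, and Itgav joined these while Fkbp1a, Cdkn1a and Smurf1 did not pass. From 2 to 5% 3 of 26 did, against 5.79% of all genes (Id2, Cdkn1a and Junb, each higher in cKIT- cells). At 5% or more 0 of 22 did, against 1.61%.

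Along Prss34 in cKIT- cells, 9 of 28 listed genes at 10 CPM passed 2-fold, against 25.3% of all genes, and 7 of the 9 were higher in the lowest bin. These were Furin, a protease that cleaves the TGF-beta precursor, Bmpr2, Smad1, the ubiquitin ligase Nedd4l, Junb, Zeb2 and Cdh1, the gene of E-cadherin. Junb was the steepest, at 516 against 146 CPM (3.54, 3.27 to 3.83), and Furin had 169 against 68.5 CPM (2.47, 2.17 to 2.81). Smad1 had 29.5 against 14.0 CPM (2.10, 1.54 to 2.85) and Cdh1 318 against 158 CPM (2.00, 1.83 to 2.19). Fkbp1a, which binds the type I receptor, and the cell cycle inhibitor Cdkn1a were higher in the highest bin, Cdkn1a at 19.6 against 2.38 CPM from 200 and 5 UMIs. In cKIT+ cells, 5 of 25 passed, against 10.7% of all genes, with Eng, Tgif1 and Zeb2 higher in the lowest bin and Id1 and Cdh1 higher in the highest. By CPM, Cdh1 thus had its lower value in the lowest bin of the cKIT+ library, 70.2 against 153 CPM. In the cKIT- library it had its higher value there, as Tgfbr2 did. Per cell, the lowest cKIT- bin held 1.06 and the highest 1.55 Cdh1 UMIs, so the cKIT- direction of Cdh1 was reversed. The other listed genes are given here by CPM only, and their direction per cell can differ. The median cell held 3237 UMIs in the lowest and 9507 in the highest cKIT- bin. Scaling by TMM, which multiplies the cKIT- ratios by 0.918, takes Smad1 and Cdh1 under 2-fold.

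Across the 8 groups of sort and Prss34 bin, Tgfbr1 and Tgfbr2 followed each other closely, with a Pearson r of 0.987 on log2(CPM + 1), and Smad4 followed Tgfbr2 with an r of 0.927. Tgfbr3 went against both, with an r of -0.909 to Tgfbr1 and -0.915 to Tgfbr2. In every bin Tgfbr3 was higher in cKIT+ and both signalling receptors in cKIT- cells by point value. The r values thus take in the difference between the sorts. Groups of 1 library are not independent, and their median depth differed, at 3237 UMIs in the lowest and 9507 in the highest cKIT- bin. These coefficients are thus descriptions over 8 points. Of 6646 genes compared, those most like Smad4 were Rsrp1 (0.999), Limd2 (0.998) and Supt4a (0.997), and those most like Tgfbr2 were Gpank1, Zyx and Adck1 (each 0.996). The nearest to Tgfbr1 were Gm17745, Ccser2 and Lmo2 (0.997 to 0.998), to Tgfbr3 Hdlbp, Cdk5rap3 and Phf14 (0.980 to 0.986), and to Tgfb1 Gla, Sdf4 and Med10 (0.982 to 0.990). For Smad2 they were Brap, Nagpa and Atp10a (0.949 to 0.959) and for Smad7 Gmip, Naa35 and Uckl1 (0.964 to 0.965). Smad3 did not reach 10 CPM in any of the groups and was not compared.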

How the data were processed

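The deposited values are UMI counts per gene and cell, which the authors made from 10x Genomics 3′ libraries with Cell Ranger 3.0.2 and the mm10 genome, per the submitters' processing notes. The kit is given as version 3 in one place and version 2 in another. Genes seen in fewer than 40 cells were left out when the cells were filtered. Cells in the highest or lowest 1% of detected genes or the highest 1% of UMIs were dropped, as the study did. The libraries held 6632 and 3745 cells as deposited and 91108781 and 22869169 UMIs after the filter. Doublets were kept, since Scrublet (Scanpy 1.11.5) called 256 cKIT+ and 3 cKIT- cells. The cells without the highest Scrublet scores served as an alternative.

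Counts were summed over the cells of a group. A gene passed 2-fold when it had at least 10 CPM in either group and a ratio of at least 2, over all genes of the files. Clusters were made with Seurat 5.3.0 (2000 variable genes, 15 principal components, resolution 1) and named from marker genes. TMM factors came from edgeR 4.0.16. The fold count was tested on simulated data. With 1 library per sort no test between conditions was possible, and intervals cover counting error only, since libraries, sorts and mice were not repeated. The members, gene lists and bins were chosen with earlier results of these data known. The named genes are the members, the listed genes past 2-fold, and for each member the 3 genes of highest Pearson correlation among those with at least 20 CPM in a group. Gene positions are from GENCODE M21, which held 31011 of the 31053 gene IDs.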

Additional observations from a re-analysis of the deposited data

Results flagged for a closer look

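By CPM, Tgfbr2 moved in opposite directions along Prss34 in the sorts. The CPM ratio of the lowest over the highest Prss34 bin was 0.790 (0.642 to 0.979) in cKIT+ cells and 1.63 (1.33 to 1.97) in cKIT- cells, each with a counting interval that leaves out 1. With 1 library per sort the difference was not tested. The cKIT+ ratio was 0.978 without mitotic cells, and the cKIT- ratio was 0.558 when given as UMIs per cell. The lowest and highest cKIT+ bins held 0.445 and 0.491 Tgfbr2 UMIs per cell. Per cell, both sorts thus had the lower value in the lowest bin.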

How the results depend on the processing

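No paired analysis was possible because each sort has 1 library and the labels give both the number 1, and for the same reason no library could be left out. Of 527 member ratios under the alternatives, 431 lay within the counting interval of the main ratio, which is wide where UMIs are few, 65 lay outside it, and 31 whose main interval leaves out 1 reversed, and of 192 class levels 186 stayed and 6 moved. The number of members past 2-fold moved in 15 of 60 cases. Over all cells it was 1 in place of 0 with each cell thinned to 2000 UMIs or with UMIs per cell (Tgfbr3), and with no minimum other than 10 UMIs (Smad3). Over Mcpt8-positive cells it was 0 in place of 1 without the 10 most abundant genes in the total, with a minimum of 50 CPM, with at least 1 Mcpt8 UMI, and without mitotic cells. Along Prss34 in cKIT+ cells it was 2 in place of 0 in thinned cells (Tgfbr3 and Smad7) and 1 with no minimum (Smad3). In cKIT- cells it was 2 in place of 1 in thinned cells (Tgfbr1 and Smad4), with no minimum (Smad3 and Smad4), and with 1 Mcpt8 UMI or with the library split into 4 equal groups by Prss34 share (Smad4 and Smad7), and 3 with UMIs per cell (Tgfb1, Tgfbr3 and Smad2, higher in the highest bin). Between the sorts within bins, 2 in place of 5 distinct members passed with Mcpt8 at 1% or more, which left 21 cKIT- cells in the lowest bin, too few for that bin or for the cKIT- comparison along Prss34.

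Reversals came with UMIs per cell, apart from Smad3 in Mcpt8-positive thinned cells (0.974). The groups compared also differed in total UMIs per cell, and the parts of capture, sequencing depth and RNA per cell were not tested. As cKIT+ over cKIT- per cell, Tgfb1, Tgfbr1, Tgfbr2, Smad2, Smad4 and Smad7 had ratios of 1.69, 1.59, 1.32, 1.88, 1.42 and 1.52 over all cells and 1.66, 1.46, 1.41, 1.68, 1.30 and 1.39 over Mcpt8-positive cells. Under 0.5% Prss34, Tgfb1, Tgfbr1, Tgfbr2, Smad4 and Smad7 had 3.51, 2.08, 1.98, 1.54 and 2.13. From 0.5 to 2%, Tgfb1, Tgfbr1, Tgfbr2 and Smad4 had 2.83, 1.70, 1.48 and 1.46, and from 2 to 5%, those and Smad7 had 1.67, 1.44, 1.48, 1.28 and 1.15. As lowest over highest bin in cKIT- cells, Tgfbr1, Tgfbr2, Smad4 and Smad7 had 0.511, 0.558, 0.804 and 0.663. UMIs per cell for the bins, the cells without mitotic cells between the sorts, the total without Mcpt8 and Prss34 and the basophil-like clusters alone were chosen after seeing the data.

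Over all genes, the cKIT- calls along Prss34 were 879 higher in the lowest and 1083 in the highest bin, 666 and 1269 with TMM, and 640 and 1343 without Mcpt8 and Prss34 in the total. In cKIT+ cells they were 455 and 378, 375 and 510 without the 10 most abundant genes, and 360 and 493 without Mcpt8 and Prss34. Between the sorts in Mcpt8-positive cells they were 408 higher in cKIT+ and 485 in cKIT- cells, and 3786 and 86 with UMIs per cell. Over all cells they were 586 and 727, 2500 and 1675 with no minimum, 198 and 371 with 50 CPM, and 4723 and 142 with UMIs per cell. The cause was not tested.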
